A study of Mus musculus with 8 samples.

Results

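The 10 genes described here encode ER disulfide isomerases and oxidases, the proteins that form and rearrange disulfide bonds in the endoplasmic reticulum (ER). They were taken by gene symbol from the count tables and are 10 of 24413 symbols listed there. Grouped as the 8 isomerases are P4hb, Pdia3, Pdia4, Pdia6, Txndc5, Txndc11, Erp44 and Erp29, and Ero1l and Ero1lb are the oxidases. All 10 passed the filter on low counts, which left 9904 genes for testing.

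Their transcripts were measured in plasmablasts, dividing cells that secrete antibody, from C57BL/6J mice. B220+ B cells of the spleen were kept for 4 days in 25 µg/ml lipopolysaccharide (LPS), a bacterial product that makes B cells divide and turn secretory, and the cells lacking CD22 and bearing CD138 were sorted. The 4 knockout libraries came from Jagn1fl/fl Mb1Cre+ mice and the 4 control libraries from Jagn1fl/fl mice for which no Cre is listed, so both groups carry floxed alleles of Jagn1, a gene for an ER membrane protein. Mb1-Cre is driven by the B cell gene Cd79a and acts from early B cell stages, so deletion precedes LPS treatment, and carrying Cre and losing Jagn1 cannot be told apart in this design. The question is how the loss of Jagn1 changes the transcripts of these secretory cells.

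Disulfide bonds hold antibody chains together and are made in the ER by proteins of the protein disulfide isomerase (PDI) family, which pass an oxidized cysteine pair to a client protein or reshuffle bonds that were wrongly paired. The oxidases of the Ero1 family re-oxidize the isomerases and hand the electrons to oxygen, which yields hydrogen peroxide. Ero1l, named Ero1a in current annotation, is known as a target of hypoxia and of the transcription factor CHOP, whereas Ero1lb, now Ero1b, is known from highly secretory cells and as a target of the unfolded protein response, the set of pathways that adjust ER capacity.

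Promoter sequences are shown because most of these genes are textbook targets of the unfolded protein response. RefSeq promoters (GRCm38.p6, 250 bases before to 50 bases after a gene's start) were found for 9 of the 10 genes, Erp29 being the exception, and gave 13 promoters. The ER stress element, CCAAT followed 9 bases later by CCACG, was searched on both strands. It was found in Pdia6 and Ero1lb, and in 39 of 32851 promoters of the same length (0.119%). Capitals mark the element, which lies on the plus strand of the Pdia6 promoter (chr12:17266339-17266544, plus strand) and in reverse on the Ero1lb promoter (chr13:12565633-12565873, plus strand).
Pdia6: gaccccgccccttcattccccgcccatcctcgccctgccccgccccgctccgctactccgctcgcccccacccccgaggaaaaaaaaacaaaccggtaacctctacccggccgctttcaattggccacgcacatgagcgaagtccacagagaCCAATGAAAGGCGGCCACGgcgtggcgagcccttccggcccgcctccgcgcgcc
Ero1lb: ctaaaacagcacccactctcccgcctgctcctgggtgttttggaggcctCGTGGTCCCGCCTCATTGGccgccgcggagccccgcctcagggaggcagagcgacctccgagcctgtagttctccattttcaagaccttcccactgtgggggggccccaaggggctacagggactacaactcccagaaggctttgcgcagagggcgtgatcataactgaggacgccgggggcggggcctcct

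The core bound by XBP1, TGACGTGG, was found in Txndc5 and Txndc11, and in 222 of all promoters (0.676%). It is shown in capitals for Txndc5 (chr13:38528034-38528063, minus strand) and Txndc11 (chr16:11134616-11134645, minus strand). The shorter letters ACGTG, the core read by HIF-1 and contained in TGACGTGG, were found in 6 of the genes (P4hb, Pdia6, Txndc5, Txndc11, Erp44 and Ero1l) and in 19.6% of all promoters. The match in Ero1l (chr14:45318619-45318648, minus strand) lies on the opposite strand and therefore reads CACGT. In the GENCODE M21 annotation the windows shown for Txndc5, Txndc11 and Ero1l lie inside the gene, past its outermost start. The TGACGTGG match of Txndc5 was found in its promoter 3 and in none of its other RefSeq promoters. Neither ATTGG followed 1 base later by CCACG (0.0365% of all promoters) nor TGATGCAA, a composite element of ATF4 and CHOP (0.895%), was found in these windows of the 9 genes.
Txndc5: ggcctcgccgcTGACGTGGcgctagccgcc
Txndc11: tgaagtgtggcTGACGTGGagagtccgggt
Ero1l: gcgcgcgccgctgCACGTccgcaggggagg

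The deposited files held raw 3′ tag counts, with totals of 5882912 to 10066661 per library, and levels are given as CPM, in which each count is divided by its library's total after trimmed-mean (TMM) normalization. At a floor of 3 counts, a gene with 0 counts could still lie at 0.298 to 0.510 CPM, depending on the library. The kit reads the 3′ end of a transcript, so CPM was not divided by gene length. Reads carry no stated molecular identifiers, and all intervals on counts and floors cover counting error only. The deleted gene, Jagn1, had 19, 35, 16 and 99 counts in control replicates 1 to 4 against 2, 1, 1 and 1 in the knockout replicates, a log2 fold change of -4.81 ± 0.73 (SE, edgeR quasi-likelihood test, adjusted p = 0.000818). Control replicates 1 and 4 stood farther from their group than the other libraries, with root-mean-square deviations of 0.594 and 0.581 (log2 CPM) against 0.324 to 0.432, and calls among the 10 genes and counts of list genes that change without them are given beside the main values. The libraries are bulk samples, in which fewer cells of a type and less RNA per cell cannot be told apart.

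The 10 genes together supplied 0.754% ± 0.0581 of all control counts and 0.709% ± 0.0763 of all knockout counts (SD, n = 4 each). In the knockout libraries 1 of the 10, Ero1l, was higher and 1, Txndc5, was lower. Among all tested genes, edgeR's quasi-likelihood test with Benjamini-Hochberg adjustment at 0.05 called 252 higher (2.54%) and 316 lower (3.19%). One of the 10 genes had all 4 knockout libraries above all 4 control libraries, as did 6.45% of all tested genes, and 1 had them all below, as did 6.64%. The median log2 fold change was -0.11 over the 10 genes and -0.0096 over all tested genes. It was 0.64 over the 2 oxidases and -0.12 over the 8 isomerases. With so few genes these counts do not set the family apart from the background.

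**Figure D1:**
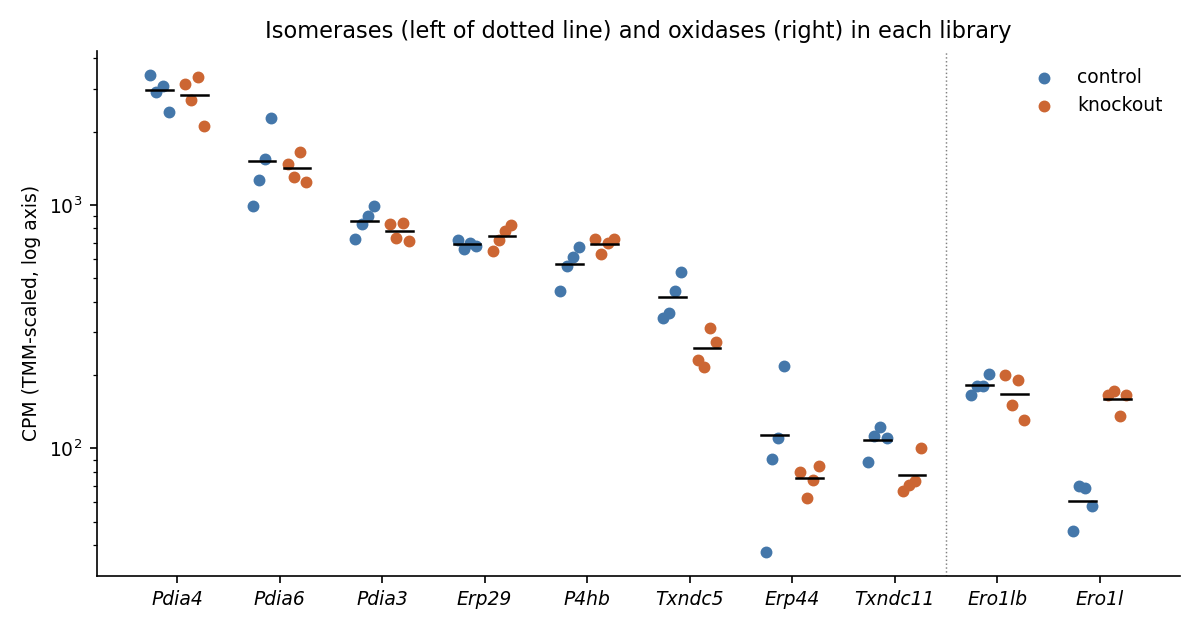
CPM (TMM-scaled, log axis) of the 10 genes in each of the 8 libraries, with points for single libraries and bars for group means. The groups separate for Ero1l, where the knockout libraries are all higher, and for Txndc5, where they are all lower, and the control libraries of Erp44 and Pdia6 spread widely.

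Ero1l, one of the 2 ER oxidases, was higher in all 4 knockout libraries. It measured 45.9, 70.1, 68.8 and 58.1 CPM in control replicates 1 to 4 and 166, 173, 136 and 166 CPM in knockout replicates 1 to 4. The lowest knockout library therefore stood well above the highest control library. The group means were 60.7 ± 11.2 and 160.1 ± 16.6 CPM (SD, n = 4 each). These gave a log2 fold change of 1.40 ± 0.17 (SE; 95% interval 1.05 to 1.75; edgeR quasi-likelihood test, adjusted p = 0.000121), or a 2.64-fold rise with an interval of 2.06 to 3.37. Ero1l had the 32nd smallest p of the 9904 genes, and its log2 fold change stayed between 1.21 and 1.47 under every alternative run. Its position is chromosome 14, 45283087 to 45318771, minus strand (GRCm38, GENCODE M21) with up to 16 exons in an annotated transcript.

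Ero1lb, its paralogue, did not pass the test. The control replicates 1 to 4 held 166, 181, 180 and 201 CPM and the knockout replicates 200, 150, 191 and 130 CPM. Knockout replicates 2 and 4 lay below every control library, while knockout replicates 1 and 3 lay within the control range. Ero1lb had a log2 fold change of -0.12 ± 0.16 (SE, edgeR adjusted p = 0.769), and its 95% interval of -0.45 to 0.22 leaves out a change of the size seen for Ero1l. In the control libraries Ero1lb was the more abundant of the pair by 3′ tags (mean 182 ± 14.3 CPM), and in the knockout libraries (168 ± 33.0 CPM) its mean was close to that of Ero1l. Its position is chromosome 13, 12565874 to 12611396, plus strand.

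The balance within the pair can be read inside each library, where scaling cancels. Ero1l made up 21.6%, 28.0%, 27.6% and 22.4% of the summed Ero1l and Ero1lb counts in control replicates 1 to 4. In knockout replicates 1 to 4 it made up 45.3%, 53.5%, 41.6% and 56.0%. For control replicate 1 the exact Clopper-Pearson 95% interval was 19.6% to 23.8%, and for knockout replicate 4 it was 54.0% to 58.0%. All 4 knockout shares were thus above all 4 control shares, with means of 49.1% ± 6.77 and 24.9% ± 3.35 (SD, n = 4 each). On the log2 scale Ero1l minus Ero1lb moved from -1.60 ± 0.26 to -0.053 ± 0.39, a difference of 1.54. These shares share their counts with the tested change of Ero1l and were given no test of their own.

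Among the isomerases, P4hb, the founding PDI and also a subunit of prolyl 4-hydroxylase and of the microsomal triglyceride transfer protein, measured 443, 563, 613 and 671 CPM in control replicates 1 to 4 and 723, 629, 699 and 722 CPM in the knockout replicates. All but 1 of the knockout libraries lay above every control library, and knockout replicate 2 lay below control replicate 4. Its log2 fold change of 0.28 ± 0.15 (SE, 95% interval -0.035 to 0.59) did not pass (edgeR adjusted p = 0.346). Pdia3, the isomerase that works with calnexin and calreticulin on glycoproteins, ran from 727 to 985 CPM in control and from 708 to 840 CPM in knockout libraries. The groups overlapped, with a log2 fold change of -0.14 ± 0.14 (95% interval -0.43 to 0.15). P4hb lies on chromosome 11 (120560298 to 120573253, minus strand) and Pdia3 on chromosome 2 (121413775 to 121438687, plus strand).

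Pdia4 and Pdia6, which are found in chaperone complexes with BiP, were the 2 most abundant of the 10 by 3′ tags. Pdia4 measured 3424, 2913, 3063 and 2394 CPM in control replicates 1 to 4 and 3127, 2682, 3332 and 2104 CPM in the knockout replicates. Replicate 4 was the lowest in both groups, and the ranges overlapped almost entirely. Its log2 fold change was -0.069 ± 0.16 (SE, 95% interval -0.41 to 0.28), and it turned to 0.046 without knockout replicate 4 and to 0.012 without control replicate 1. Pdia6 measured 990, 1270, 1540 and 2266 CPM in control and 1468, 1303, 1643 and 1246 CPM in knockout libraries. The control libraries spread 2.29-fold and enclosed the 4 knockout libraries. The log2 fold change of Pdia6 was -0.10 ± 0.21 (SE, 95% interval -0.54 to 0.34), and 0.15 without control replicate 4. Pdia4 lies on chromosome 6 (47796141 to 47813430, minus strand) and Pdia6 on chromosome 12 (17266545 to 17284770, plus strand).

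Txndc5, an isomerase with 3 thioredoxin domains that is abundant in plasma cells, was the isomerase that fell. It measured 343, 359, 443 and 531 CPM in control replicates 1 to 4 and 230, 216, 314 and 274 CPM in knockout replicates 1 to 4. Every knockout library was below every control library; the nearest were knockout replicate 3 and control replicate 1. The group means were 419 ± 86.7 and 258.5 ± 44.2 CPM (SD, n = 4 each). Its log2 fold change was -0.70 ± 0.17 (SE; 95% interval -1.06 to -0.33; edgeR quasi-likelihood test, adjusted p = 0.0248), a level 0.617 times the control with an interval of 0.480 to 0.793. The call was lost without knockout replicate 1 (adjusted p = 0.0998), 2 (0.126) or 4 (0.0559), or without control replicate 3 (0.0837), in the same edgeR test. It was kept without control replicates 1 and 4 together, with a log2 fold change of -0.63 and an edgeR adjusted p of 0.00674.

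Some plasma cell markers were also lower. Of 8 such markers, 4 were called lower, none higher, and the others were not called. Those not called included Mzb1 (log2 fold change -0.17, edgeR adjusted p = 0.581) and Xbp1 (-0.39, edgeR adjusted p = 0.643). The summed level of the 8, most of it from Mzb1, ran from 26886 to 33992 CPM with Jagn1. It ran from 21016 to 27023 CPM without Jagn1, so the groups overlapped. Sdc1, which encodes the sorting marker CD138, measured 33.0 to 56.7 CPM in control and 16.8 to 23.3 CPM in knockout libraries. The part of these markers in the lower Txndc5 level was not tested. Txndc5 lies on chromosome 13 (38500079 to 38528824, minus strand), and 224 exonic bases at its 3′ end overlap Bmp6 on the opposite strand, which had 0 counts in all 8 libraries.

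Txndc11, known as a partner of the dual oxidases and of ER degradation factors, had 88.4, 112, 122 and 111 CPM in control replicates 1 to 4 and 66.7, 70.7, 73.4 and 100 CPM in the knockout replicates. All but 1 of the knockout libraries lay below every control library, and knockout replicate 4 lay above control replicate 1. Its log2 fold change of -0.48 ± 0.17 (SE, 95% interval -0.84 to -0.12) did not pass in edgeR's quasi-likelihood test (adjusted p = 0.127). It passed with limma-voom and sample weights (adjusted p = 0.0116), and in edgeR without control replicate 1 (0.0319) or without control replicates 1 and 4 (0.0235). The 3′ end of Txndc11 shares 75 exonic bases with Snn on the opposite strand, which had 188 to 246 counts in the control and 98 to 129 counts in the knockout libraries. No source used here gives the strand setting of the authors' counting, so reads from those bases cannot be assigned to either gene. Txndc11 lies on chromosome 16 (11074911 to 11134650, minus strand).

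Erp44, which holds Ero1 proteins and unassembled antibody in the early secretory pathway and returns them to the ER, varied most among the control libraries. It measured 37.6, 90.4, 110 and 218 CPM in control replicates 1 to 4, a 5.79-fold spread, and 79.8, 62.5, 74.5 and 84.9 CPM in the knockout replicates, a 1.36-fold spread. The control libraries reached both below and above the whole knockout group. Erp44 had a log2 fold change of -0.60 ± 0.37 (SE, 95% interval -1.41 to 0.21, edgeR adjusted p = 0.449). It was -0.89 without control replicate 1, which passed (edgeR adjusted p = 0.0209), -0.08 without control replicate 4 (0.885), and -0.41 without both (0.121). No direction can be given for Erp44 from these libraries. The gene lies on chromosome 4 (48193323 to 48279558, minus strand).

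Erp29, a family member without the cysteine pair of the active site that acts as a chaperone, was the most even in the control libraries. It measured 716, 659, 695 and 680 CPM in control replicates 1 to 4 and 646, 720, 782 and 824 CPM in the knockout replicates. All but 1 of the knockout libraries lay above every control library and replicate 1 lay below them all. It had a log2 fold change of 0.11 ± 0.13 (SE, 95% interval -0.16 to 0.39, edgeR adjusted p = 0.721). Erp29 lies on chromosome 5 (121428590 to 121452506, minus strand) and shares 2210 exonic bases with Naa25 on the opposite strand, which had 109 to 267 counts. The annotated transcripts of Erp29 end at different places. The outermost end of the gene shares no base with Naa25, whereas the last 400 bases of the transcript used in the search for copies all do, and which end gave the tags was not determined.

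**Figure D2:**
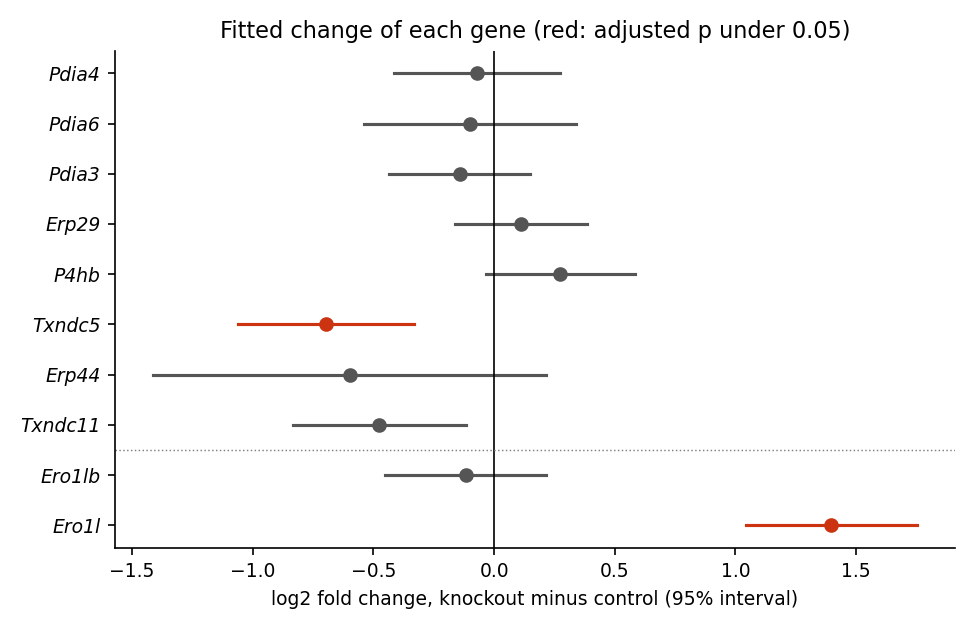
Log2 fold change of each of the 10 genes, knockout minus control, from the edgeR fit (points, with 95% intervals as bars, red where the adjusted p was under 0.05). The intervals of Ero1l (1.05 to 1.75) and Txndc5 (-1.06 to -0.33) belong to the 2 genes that passed after adjustment, that of Erp44 is the widest, and the interval of Txndc11 also leaves out 0 although its adjusted p did not pass.

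Set against the isomerases within each library, the oxidases were higher without Jagn1. The mean log2 CPM of the oxidases minus that of the isomerases was -2.25, -2.16, -2.35 and -2.58 in control replicates 1 to 4 and -1.35, -1.41, -1.65 and -1.69 in knockout replicates 1 to 4. The groups did not overlap, and their means of -2.33 ± 0.18 and -1.53 ± 0.17 (SD, n = 4 each) differed by 0.81. Leaving out single libraries gave differences of 0.73 to 0.87. The difference was 0.47 with the median over the isomerases in place of the mean, and 0.51 for the log2 ratio of the summed counts, again without overlap of the groups. In plain counts the isomerases gave 31.9, 27.1, 30.1 and 30.3 counts per oxidase count in control replicates 1 to 4 and 19.6, 19.8, 23.8 and 20.5 in the knockout replicates.

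The shift was seen in 1 of the oxidases. Ero1l minus the isomerases differed by 1.58 between the groups (log2), whereas Ero1lb minus the isomerases differed by 0.037. Summed over the pair, the oxidases stood at 243 ± 20.8 CPM in control and 328 ± 28.8 CPM in knockout libraries, while the isomerases summed to 7227 ± 533 CPM in control and 6854 ± 761 CPM in knockout libraries (SD, n = 4 each). The genes were grouped with earlier results of these data known, so no p is given for these differences.

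**Figure D3:**
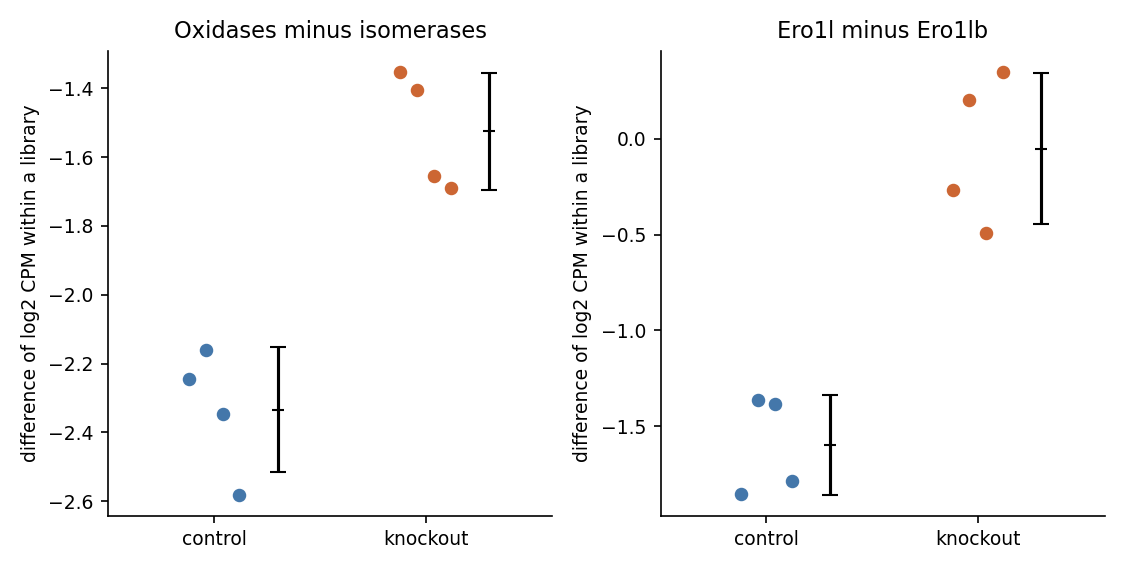
Values within each of the 8 libraries, with points for libraries and bars for the group mean ± SD (n = 4 each): the oxidases minus the isomerases (mean log2 CPM) and Ero1l minus Ero1lb (log2). All 4 knockout libraries lie above all 4 control libraries in both, with group differences of 0.81 and 1.54.

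The make-up of the 10-gene pool was led by the same genes in both groups. Pdia4 supplied 39.9% ± 8.04 of the pool's counts in the control and 38.9% ± 3.94 in the knockout libraries, and Pdia6 supplied 20.01% and 19.68% (SD, n = 4 each for Pdia4). Pdia3 followed with 11.5% and 10.9%, Erp29 with 9.24% and 10.5%, and P4hb with 7.63% and 9.73%. Txndc5 went from 5.57% to 3.61% and Ero1l from 0.815% to 2.26%. Ero1l, the smallest mean share in the control libraries, thus reached about the share of Ero1lb (2.44% and 2.32%) in the knockout libraries. Shares of a pool are not independent, since a rise in one lowers the others.

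Control replicates 1 and 4 held opposite make-ups of this pool. Pdia4 was 49.0% of it in control replicate 1 and 29.5% in control replicate 4, and Pdia6 was 14.2% and 27.9%. Control replicate 1 was the lowest of its group for 6 of the 8 isomerases and the highest for the others, Pdia4 and Erp29. Control replicate 4 was the highest for 5 of the 8 and the lowest for Pdia4. In the knockout libraries the share of Pdia6 was 19.7% ± 0.443 (SD, n = 4). The coefficient of variation of Pdia6 was 36.1% across the control and 12.6% across the knockout libraries in CPM, and that of Erp44 was 66.4% and 12.7%. No test of these spreads was made.

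**Figure D4:**
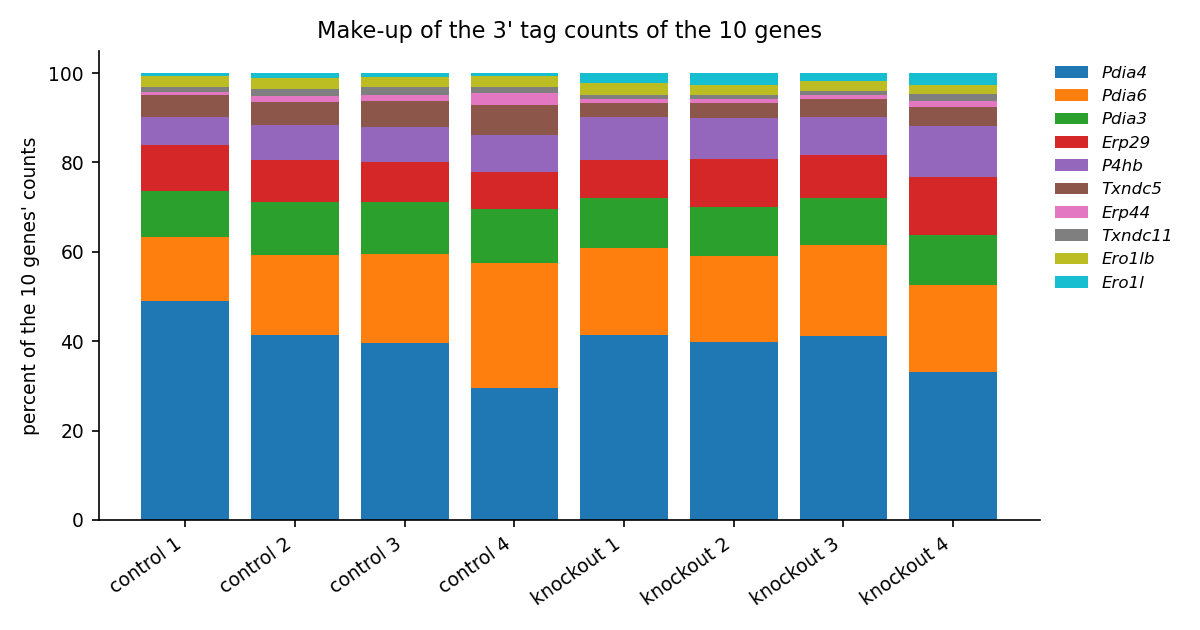
Share (percent) of each of the 10 genes in their summed 3′ tag counts, as 1 stacked bar for each of the 8 libraries. The shares of Pdia4 (49.0% and 29.5%) and Pdia6 (14.2% and 27.9%) differ between control replicates 1 and 4 by more than their group means do, and Ero1l is wider in the knockout libraries.

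Other genes of the pathway were read from lists of known members. Of 14 further PDI family genes 9 were tested, and Txndc16 alone was called, as lower. It measured 59.1, 49.0, 65.3 and 60.9 CPM in control replicates 1 to 4 and 19.9, 30.6, 27.3 and 27.2 CPM in the knockout replicates. The groups did not overlap, and the log2 fold change was -1.16 ± 0.18 (SE, edgeR adjusted p = 0.00115). The list's median was -0.15, with the remaining 8 tested genes not called.

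Genes listed as other ER oxidation enzymes, among them Gfer, which is known mainly from mitochondria, gave no call in edgeR among 8 tested of 9. At an unadjusted p under 0.05 in that test, 2 were higher and 0 lower. Their median log2 fold change was 0.34. By unadjusted p the first of them was Qsox1, a sulfhydryl oxidase of the later secretory pathway, at 288 ± 32.4 CPM in control and 394 ± 28.9 CPM in knockout libraries (SD, n = 4 each). The Qsox1 groups did not overlap, and its log2 fold change of 0.45 had an adjusted p of 0.0631 in edgeR, 0.0223 in DESeq2 and 0.0324 in limma-voom. Without control replicate 2, edgeR called 1 gene of this list higher, which was not Qsox1. Among 15 tested of 16 genes for thiol reduction and redox supply, 1 was called higher and none lower, with a median of 0.36. That gene was Gclm, the modifier subunit of the enzyme that starts glutathione synthesis, at 12.5 ± 3.87 and 25.4 ± 3.12 CPM (log2 fold change 1.02 ± 0.25, edgeR adjusted p = 0.0250). The Gclm call was lost without knockout replicate 1 (adjusted p = 0.0703), 2 (0.103) or 3 (0.0786), or without control replicate 2 (0.0724), each of which left 0 genes of this list called. The count called higher was 3 without control replicate 1, 3 without control replicate 4, 2 without both and 2 with limma-voom.

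Partners and clients of the isomerases gave few calls. Of 4 partner subunits of P4hb, 2 were tested and neither passed in edgeR, DESeq2 or limma-voom (0 at an unadjusted p under 0.05), with Mttp at 0.84 on the log2 scale (edgeR adjusted p = 0.591). Of 13 tested ERp44 clients and cycle partners, Ero1l was the 1 called in edgeR, with 4 higher and 2 lower at an unadjusted p under 0.05. The count called higher in this list was 2 in DESeq2, 3 in limma-voom, and in edgeR 2 without the filter on low counts, 2 without control replicate 2, and 3 without control replicate 4 or without control replicates 1 and 4. Called lower was 1 gene without control replicate 1, alone or together with control replicate 4. In the calnexin cycle, which Pdia3 serves, none of 12 tested genes passed in edgeR (0 in DESeq2 and 1 in limma-voom), with 2 higher at an unadjusted p under 0.05 and a median of -0.036, and Prkcsh had the smallest p (log2 fold change 0.52, edgeR adjusted p = 0.179). Prkcsh passed with limma-voom (adjusted p = 0.00467), and in edgeR without control replicate 1 (0.00220) or without control replicates 1 and 4 (0.00415). Without control replicate 1, another gene of this list was called lower.

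Antibody assembly genes moved in both directions, with 1 of 7 higher, 2 lower and a median of -0.040. Fkbp11, an ER prolyl isomerase, rose from 88.4 ± 14.3 to 163 ± 20.2 CPM (log2 fold change 0.88, edgeR adjusted p = 0.00334). Jchain, which joins IgM into pentamers through disulfides, fell from 7517 ± 1883 to 4065 ± 997 CPM (log2 fold change -0.89 ± 0.19, edgeR adjusted p = 0.0122). The Jchain call was lost without knockout replicate 1 (adjusted p = 0.0625) or 2 (0.0713), or without control replicate 3 (0.0594). Sdf2l1, a cofactor of the BiP cycle, fell to 99.5 ± 10.6 CPM (log2 fold change -0.85, edgeR adjusted p = 0.00159) and was the 1 of 13 BiP-cycle genes called, in a list whose median was 0.21. With limma-voom, or in edgeR without control replicate 4 or control replicates 1 and 4, 2 BiP-cycle genes were called higher, with a replicate block 1 was, and without control replicate 1 the count lower was 2.

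Known regulators and co-targets of Ero1l differed in how many passed. Of 15 tested genes of the ATF4 and CHOP programme, 12 were called higher and none lower, and their log2 fold changes ran from 0.64 to 4.61 around a median of 1.34. Ddit3, which encodes CHOP, rose from 175 ± 63.7 to 508 ± 96.5 CPM (log2 fold change 1.54, edgeR adjusted p = 0.00116). Trib3 (2.66), Chac1 (1.63), Atf5 (2.40), Asns (1.34) and Nupr1 (4.04) also passed, with these log2 fold changes. Ero1l, at 1.40, lay within the range of this list. It also lay within the range of the HIF-1 target genes below, -0.78 to 2.14. The upper end of that range was Ndrg1 alone, at 0.920 ± 1.02 CPM in control and 3.96 ± 1.53 CPM in knockout libraries (SD, n = 4 each). Ndrg1 had at most 44 counts in a library and was not called (edgeR adjusted p = 0.167). The next highest HIF-1 target gene was Vegfa, at 0.79. Of 17 tested HIF-1 target genes edgeR called none higher and 1 lower, with a median of -0.052 and 4 higher and 2 lower at an unadjusted p under 0.05. Called higher were 1 in DESeq2, 2 in limma-voom, and 1 in edgeR with a replicate block, with no filter on low counts, or without control replicate 1, control replicate 4 or both. Called lower was Ldha, a glycolytic enzyme, which fell from 136 ± 23.0 to 79.0 ± 6.86 CPM (log2 fold change -0.78, edgeR adjusted p = 0.00677). The list of XBP1 and ATF6 programme factors held 8 genes, among them Eif2ak3, a sensor of the ATF4 branch. Of these 8, 1 was called, Atf6b, as lower (468 ± 34.3 to 288 ± 20.1 CPM, log2 fold change -0.70, edgeR adjusted p = 0.00380). The ATF4 and CHOP list and the HIF-1 list share no gene, so a target of both programmes would be counted under only 1 of them. These lists were chosen with earlier results known, and the counts describe them without a test of the list.

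**Figure D5:**
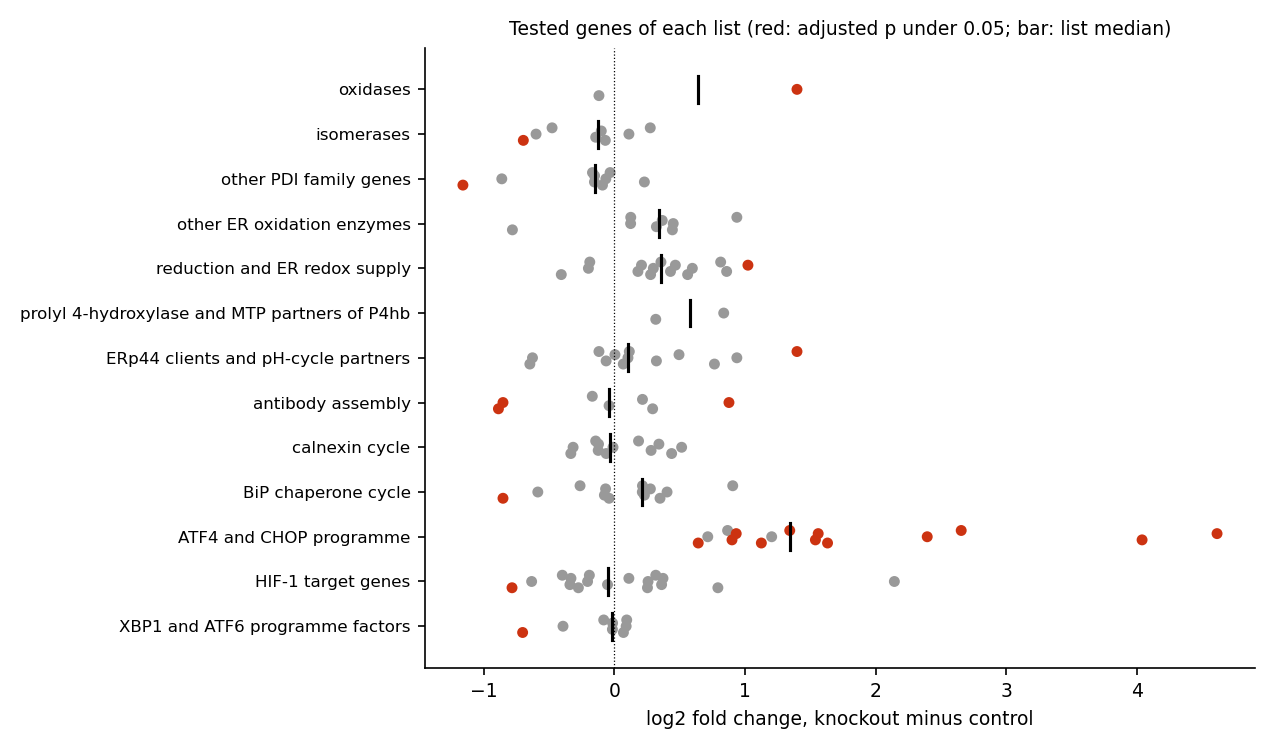
Log2 fold change, knockout minus control, of each tested gene in the 13 lists (points, red for genes called by edgeR at an adjusted p under 0.05, with a vertical bar at each list's median). The ATF4 and CHOP programme sits apart at a median of 1.34, and the isomerases, calnexin cycle, HIF-1 targets and XBP1 and ATF6 factors have medians between -0.12 and -0.014.

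Markers of other cell types were low. Neutrophil markers had 0 counts in all 8 libraries, and the macrophage or monocyte, NK cell and erythroid lists summed to at most 3.16 CPM, with Lyz2, Cd14 and C1qb at 0 throughout. T cell markers summed to 9.05 to 12.5 CPM in control and 5.50 to 7.21 CPM in knockout libraries, and dendritic cell markers to 1.26 to 4.46 and 4.89 to 7.09 CPM, and the part of these in any result was not tested. Stromal or endothelial markers summed to 18.5 to 30.1 and 20.7 to 25.2 CPM. B lineage markers summed to 1273 to 1672 CPM in control and 1167 to 1302 CPM in knockout libraries, with 1 called lower and none higher. Cd79a, the gene that drives Mb1-Cre, measured 220 to 396 CPM in control and 116 to 173 CPM in knockout libraries. The cause of this difference was not tested.

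No near-identical copy of any of the 10 genes was found among annotated transcripts. A search with the last 400 bases of each, at 90% identity over at least 100 bases, returned only the opposite-strand overlaps of Erp29 with Naa25 and of Txndc5 with Bmp6.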

How the data were processed

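RNA of the 8 sorted samples was extracted with Trizol and made into QuantSeq 3′ FWD libraries, per the labels' protocols. The authors deposited raw counts of reads for each symbol. Per the submitters' processing notes, TopHat2 2.1.1, HTSeq 0.6.1, BWA 0.7.12, SAMtools 1.3.1 and the mm10 genome were used. The roles of these tools, the annotation and the strand setting are not stated in the sources used.

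Groups follow titles and genotypes, with 4 mice per genotype per the labels. Genes were filtered with filterByExpr (minimum count 10, minimum total 15), TMM-scaled and tested with edgeR 4.0.16 in R 4.3.3 (quasi-likelihood F-test, robust, group only, two-sided, Benjamini-Hochberg over 9904 genes, threshold 0.05), steps tested on simulated data. Standard errors are the log2 fold change over the square root of F. Log2 CPM used a prior count of 2. Totals were 5882912 counts or more. Alternatives were DESeq2 1.42.0, limma-voom 3.58.1 with sample weights, other scalings, filters and prior counts, no robust fit, a replicate block, and libraries left out.

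Members and lists were chosen with earlier results of these data known. Named genes are the 10, Jagn1, up to 6 called genes per list by smallest p, or else the 1 with the smallest p. Sdc1, Mzb1, Xbp1, Cd79a, Snn, Naa25, Bmp6, Ndrg1, Vegfa, Eif2ak3 and Gfer were named after their values were seen. Promoters are from RefSeq, matched by symbol or synonym. Copies were searched with blastn 2.17.0. The planned reading of protein sequences was not made.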

Additional observations from a re-analysis of the deposited data

Results flagged for a closer look

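Single libraries were compared with the rest of their group for the 10 genes, the named genes and the ratios, in 56 groups of 4, of which 3 held a library whose gap to its nearest neighbour passed Dixon's 95% limit. Chance flags about 1 in 20 such groups. None was a value of the 10 disulfide genes. Qsox1 measured 337 CPM in control replicate 2, above the other control libraries at 268 to 277 CPM. Mttp measured 5.37 CPM in knockout replicate 1, away from the other knockout libraries. Nupr1 measured 105 CPM in knockout replicate 2, above the other knockout libraries.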

How the results depend on the processing

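Ero1l was the 1 disulfide gene called higher under all 17 alternatives, with log2 fold changes of 1.21 to 1.47 and adjusted p up to 0.00133. The count called lower, 1 in the main test, was 2 with limma-voom, 2 without control replicates 1 and 4, and 0 to 3 when single libraries were left out. Over all genes, 252 higher and 316 lower became 471 and 581 with limma-voom, 438 were higher without control replicates 1 and 4, and leaving out single libraries gave 137 to 411 higher and 133 to 481 lower. Oxidases minus isomerases (0.81) was 0.47 by the median and 0.51 by summed counts. The group difference of the Pdia4 share, -0.98 percentage points, ran from -4.44 to 2.08 when single libraries were left out. With single libraries left out, the log2 fold change of Pdia4 ran from -0.17 to 0.046, turning positive without knockout replicate 4 (0.046) or control replicate 1 (0.012), and that of Pdia6 from -0.26 to 0.15, turning positive without control replicate 4 (0.15). Leaving out control replicates 1 and 4 gave 0.013 for Pdia6. The cause of these changes was not tested.

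Same-numbered libraries deviated together little (correlations -0.0034 to 0.066, with 1 of 4 control and 2 of 4 knockout libraries best with their own number). These values cannot show whether same-numbered mice were paired, and the main test used no pairing. With a replicate block, 243 genes were higher and 266 lower, Ero1l (1.41, adjusted p = 0.000377) and 1 gene lower were called among the 10, and Erp44 was -0.37.

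Depth limits Jagn1 and genes of a few counts. For the 10 disulfide genes the spread between libraries, not depth, is the larger error.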

Other observations

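Ero1l and Txndc16, which passed the test in opposite directions, are neighbours. Txndc16, a further PDI family gene, lies on chromosome 14 from 45133465 to 45220328 on the minus strand (GRCm38, GENCODE M21), 62758 bases from Ero1l on the same strand, with 0 protein-coding genes wholly between them. Their log2 fold changes were -1.16 ± 0.18 for Txndc16 and 1.40 ± 0.17 for Ero1l (SE). The pair was noticed after the values were seen, and nothing about the region was tested.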
